A study of Drosophila simulans and Drosophila sechellia and Drosophila simulans x Drosophila sechellia with 72 samples.

Results

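The animals of this series were the fruit flies Drosophila simulans, a generalist, and Drosophila sechellia, a close relative that feeds on the toxic noni fruit, together with their hybrids. The chemoreceptor genes described here are the 100 of 7836 genes in the deposited expression table whose symbols begin with Or, Gr or Ir and a number, without Or22a. They comprise 31 odorant receptor genes (Or), 40 gustatory receptor genes (Gr) and 29 ionotropic receptor genes (Ir). The rule uses symbols only, and no level or difference between samples is part of it. The genes and lists were nevertheless chosen with earlier results of these data known.

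Each of 72 libraries held poly(A) RNA from 1 homogenate of 10 whole animals, either adult females or third-instar (L3) larvae labelled female. Rearing was at 20 °C under a cycle of 16 h light and 8 h darkness. There were 12 libraries for each of D. simulans, D. sechellia and the hybrids at each stage, 3 for each of 4 media histories. A history names the food of the previous generation first and that of the sampled generation second, as SS, SO, OS or OO. S stands for standard medium, while O marks added octanoic acid, a fatty acid of noni fruit that is toxic to D. simulans. Hybrid libraries have 1 column of values for the D. simulans allele and 1 for the D. sechellia allele of each gene. Which species gave the mother is not given in the sources used here. In RNA of whole animals, fewer cells of a type and less RNA per cell cannot be told apart.

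Insects smell and taste through 3 families of receptor channels, each made by small sets of sensory neurons. In D. melanogaster an odorant receptor works in a complex with the shared co-receptor Orco, most ionotropic receptors work with Ir25a, Ir76b or Ir8a, and gustatory receptors for sugars, bitter compounds and carbon dioxide work in groups. Because these neurons are a tiny share of a whole fly, receptor transcripts are rare in RNA of whole animals. Whether a receptor is detected at all is therefore given below beside its level. All roles given below are those known from D. melanogaster.

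Most receptor genes were listed at or near 0 in every set of libraries. Values are FPKM, fragments per transcript length and per mapped read total, which allow levels to be compared between genes of different length. A gene counts as detected in a set of 12 columns when at least 6 are above 0. By that rule 31 of the 100 receptors were detected in adults of D. simulans and 39 in those of D. sechellia, and 33 and 39 in larvae. Of all 7836 genes, 81.3%, 84.8%, 90.4% and 94.2% were detected in those 4 sets. Receptors listed at 0 in all 12 libraries numbered 27, 17, 23 and 19 in the same order. A mean of at least 1 FPKM was reached by 3, 12, 2 and 7 receptors.

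Single libraries showed from 25 to 42 receptors above 0 in D. simulans adults (median 34.5) and from 32 to 49 in D. sechellia adults (median 41.5). In larvae the range was 27 to 45 in D. simulans (median 34.5) and 34 to 46 in D. sechellia (median 37.5). The ranges of the species overlapped at both stages. The lowest value above 0 in a library was 0.00574 to 0.0129 FPKM in D. simulans adults and 0.0181 to 0.0417 in D. sechellia adults, so the smallest value that can be listed was higher in D. sechellia. In larvae it was 0.00399 to 0.0134 in D. simulans and 0.0064 to 0.0273 in D. sechellia. Summed over all genes, FPKM came to 483241 to 515024 in D. simulans adults and 1090160 to 1454240 in D. sechellia adults. Read counts cannot be recovered from these values, so the depth behind a value of 0 is unknown.

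By family, the detected genes were counted without a test. In D. sechellia adults 14 of 31 Or, 12 of 29 Ir and 13 of 40 Gr genes were detected, and in D. simulans adults 11, 10 and 10. Larvae of D. sechellia had 11 Or, 14 Ir and 14 Gr genes detected, and those of D. simulans 9, 9 and 15. The 3 receptors with a mean of at least 1 FPKM in D. simulans adults were all Ir genes, as were 8 of the 12 in D. sechellia adults.

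**Figure D1:**
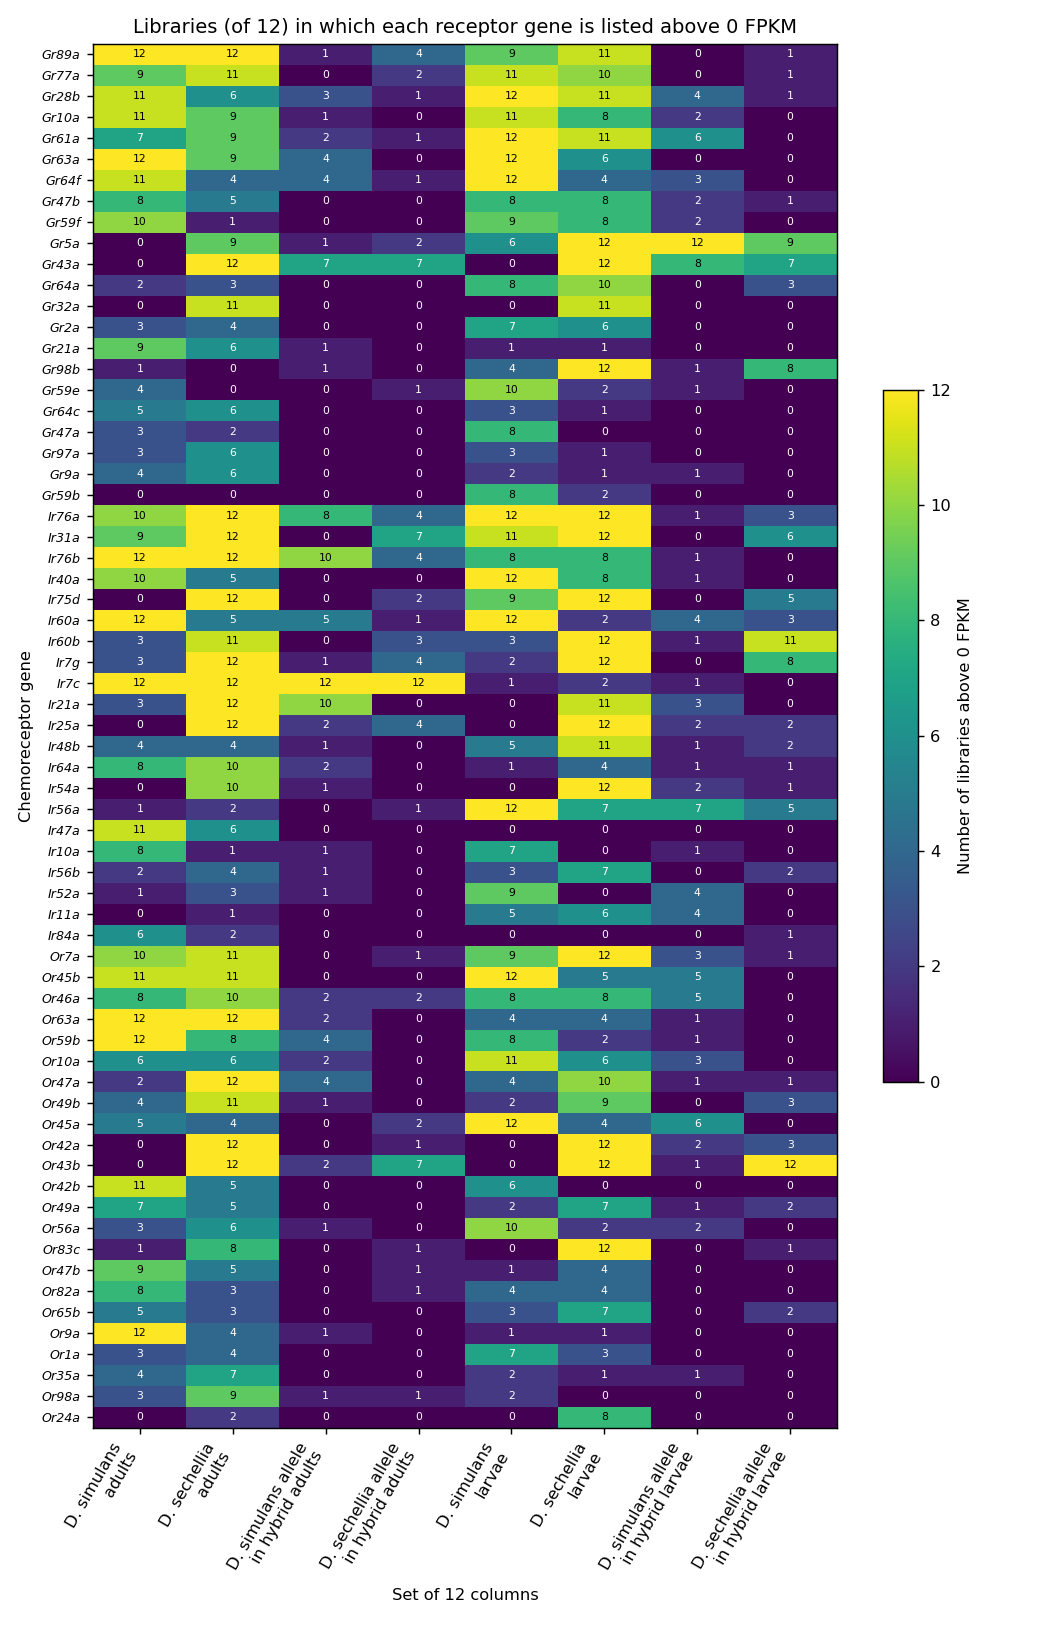
Number of libraries, of 12, in which each receptor gene is listed above 0 FPKM, for the 4 parental sets and the 4 sets of allele columns in hybrids. The 66 receptors detected in at least 6 of 12 libraries of a parental set are drawn and the other 34 are left out. Most cells of the allele columns are at or near 0, and Or43b, Ir25a, Gr43a, Or42a and Gr32a are at 0 in D. simulans at both stages.

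Some receptors were listed at 0 throughout one species and detected in the other. Or42a, Or43b, Ir25a, Ir54a, Gr32a and Gr43a were at 0 in all 24 D. simulans libraries and above 0 in at least 12 of the 24 D. sechellia libraries. That was 6 of 100 receptors, or 6.0%, against 1.95% of all genes. No receptor showed the opposite pattern, which 0.051% of all genes showed. Both species had 17 receptors above 0 in at least 12 of 24 libraries, while 89.9% of all genes met that condition. In D. simulans, genes that every cell uses were also listed at 0. UQCR-14, a subunit of the respiratory chain, was at 0 in all 12 D. simulans adults and at 2723 to 6127 FPKM in D. sechellia adults, and Tfb5, a subunit of a general transcription factor, was at 0 in 11 of 12. A value of 0 is therefore given here only as listed, and no ratio of FPKM is formed against it. The tests below still include groups listed at 0.

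In hybrids the D. simulans allele of Gr43a was above 0 in 7 of 12 hybrid adults and 8 of 12 hybrid larvae. The same allele was above 0 in 2 and 2 hybrid libraries for Ir25a and in 2 and 1 for Or43b. No D. simulans library had a value above 0 for any of the 3. How reads were split between the alleles is not given in the sources used here, and reads of D. sechellia in the D. simulans column were not tested.

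Certain receptors jumped between 0 and a clear level within 1 species and stage. Ir21a was at 0 in 9 D. simulans adult libraries and at 3.55, 4.29 and 4.23 FPKM in the other 3, which belonged to the SS, OS and OO histories. Ir76a in D. simulans adults was at 0 in 2 libraries and at 1.81 to 2.91 in 10. In D. simulans larvae Gr5a was at 0 in 6 libraries and at 1.98 to 8.14 in 6, and Ir75d was at 0 in 3 and at 2.47 to 4.64 in 9. These 4 cases have no library between 0 and 1 FPKM. Among all genes at 0 in some but not all of the 12 libraries, 12.8% had such a gap in D. simulans adults and 26.4% in D. simulans larvae. Among receptors it was 2 of 65 and 2 of 67. In D. sechellia 8.70% and 8.51% of genes had one, and no receptor did.

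Turning to the level, the receptor with the highest mean over the 24 parental adult libraries was Ir7c, which takes part in the taste of high salt. It was at 4.46 to 12.1 FPKM in D. simulans adults (median 8.22) and at 0.427 to 16.1 in D. sechellia adults (median 5.75), and above 0 in all 24. In larvae it was above 0 in 1 D. simulans and 2 D. sechellia libraries, at 0.107 at most. Ir7c was thus an adult transcript in both species. Over all genes its adult mean lay at the 40.6th percentile. Below it followed Or43b, Ir31a, Gr89a, Ir76a, Ir75d, Ir21a, Ir25a, Gr43a and Ir7g, the last with a mean of 0.949 FPKM.

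Or43b, an antennal receptor for fruit esters and alcohols, was the receptor of highest mean in larvae and the second in adults, although it was listed at 0 in all D. simulans libraries. Its D. sechellia values were 8.60 to 13.8 FPKM in adults (median 11.7) and 6.51 to 16.4 in larvae (median 10.7). Next in larvae came Gr5a, Ir75d, Ir31a, Ir60b, Ir7g, Gr98b, Ir76a, Gr77a and Gr43a, the last with a mean of 0.440 FPKM.

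The co-receptors of the Ir family were both low. Ir76b was above 0 in all adult libraries, at 0.254 to 1.06 FPKM in D. simulans (median 0.623) and 0.586 to 1.46 in D. sechellia (median 1.02). In larvae it was above 0 in 8 of 12 libraries of each species and no higher than 0.309. Ir25a was at 1.35 to 2.96 in D. sechellia adults (median 2.08) and at 0.0486 to 0.435 in D. sechellia larvae (median 0.233). The odorant co-receptor Orco, which is not among the 100, was at 2.16 to 3.38 in D. simulans adults, 2.24 to 6.38 in D. sechellia adults, 0.167 at most in D. simulans larvae and 1.74 at most in D. sechellia larvae.

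Among Ir genes for temperature and humidity, Ir21a, which serves cool sensing, was above 0 in all D. sechellia adults at 0.641 to 3.36 (median 1.95) and in 11 of 12 D. sechellia larvae, at 0.829 at most. It was at 0 in all D. simulans larvae. Ir40a, which serves dry-air sensing, was above 0 in 10 of 12 adults and 12 of 12 larvae of D. simulans and in 5 and 8 of D. sechellia. No library of Ir40a passed 1.09 FPKM.

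For the antennal Ir genes tuned to acids and amines the levels were uneven. Ir31a, which responds to an oxo acid, was at 2.99 to 7.24 in D. sechellia adults (median 3.82) and at 2.84 to 6.68 in D. sechellia larvae (median 4.41). In D. simulans it did not pass 0.146 in adults or 0.529 in larvae. Ir75d, which responds to the amine pyrrolidine, was at 2.27 to 4.03 in D. sechellia adults and at 0 in all D. simulans adults, but at similar levels in larvae of both, with medians of 3.53 and 3.50. Ir76a, which responds to phenylethylamine, had adult medians of 2.14 in D. simulans and 1.12 in D. sechellia. Ir64a, an acid sensor, was above 0 in 8 of 12 D. simulans and 10 of 12 D. sechellia adults, at 0.385 at most. Ir84a, tuned to food-derived phenylacetic acid, was above 0 in 6 and 2 adults and in no larva of either species.

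The carbon dioxide receptors Gr21a and Gr63a form 1 channel. Gr63a was above 0 in all D. simulans adults at 0.451 to 1.25 (median 0.796) and in 9 of 12 D. sechellia adults at 0.724 at most. Gr21a was above 0 in 9 and 6 adults, at 0.338 at most, and in 1 larva of each species.

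Of the 8 sugar receptor genes in the table, 2 reached 1 FPKM on average in some parental set. Gr5a, a trehalose receptor, was at 0.931 to 19.1 in D. sechellia larvae (median 5.61), at 0.677 at most in D. sechellia adults and at 0 in all D. simulans adults. Gr43a, a fructose receptor that also senses sugar inside the body, was at 0.691 to 3.43 in D. sechellia adults (median 1.99) and at 0.51 to 1.76 in D. sechellia larvae (median 0.804). Gr61a was above 0 in 7 of 12 D. simulans adults, 9 of 12 D. sechellia adults, 12 of 12 larvae of D. simulans and 11 of 12 of D. sechellia, at 1.11 at most. Gr64f, a sugar co-receptor, was above 0 in 11 of 12 adults and 12 of 12 larvae of D. simulans and in 4 and 4 of D. sechellia. Gr64a was above 0 in 8 of 12 D. simulans and 10 of 12 D. sechellia larvae, at 0.469 at most. Gr64b, Gr64c and Gr64d were above 0 in no more than 6 libraries of any set.

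Whether the species differ in these receptors was tested in adults and larvae separately. In adults, D. sechellia had higher values of 11 receptors and a lower value of 1. A receptor entered the test if it reached 1 FPKM in at least 3 of the 24 libraries, which 14 of the 100 did, and a call is an adjusted p under 0.05 from limma on log2(FPKM + 1), with Benjamini-Hochberg adjustment over 6292 genes. The 12 calls stand beside 82.9% of all genes called, 77.0% as higher in D. sechellia and 5.96% as lower. Most tested receptors passed the filter through D. sechellia, so their count and their median difference of 1.22, against 0.74 over all genes, are descriptions only.

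Differences are given on the log2(FPKM + 1) scale, which understates the change of low genes. Against a group listed at 0, their size depends on the added 1, and that group adds no spread to the SE or the adjusted p. On that scale Or43b had the largest difference, 3.60 (SE 0.06, limma adjusted p = 4.81e-21). It was followed by Ir31a at 2.30 (SE 0.12, limma adjusted p = 6.97e-13) and Ir75d at 2.06 (SE 0.07, limma adjusted p = 2.32e-16). Or43b and Ir75d were at 0 in every D. simulans adult, and for all 3 the lowest D. sechellia library lay above the highest D. simulans library.

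Gr89a, which is expressed with the bitter receptors, was the clearest case with values above 0 in every adult of both species. It was at 0.130 to 0.292 FPKM in D. simulans (median 0.191) and at 2.43 to 5.24 in D. sechellia (median 2.88), and differed by 1.82 (SE 0.10, limma adjusted p = 1.81e-12). Ir25a differed by 1.62 (SE 0.08, limma adjusted p = 2.37e-13), Gr43a by 1.56 (SE 0.09, limma adjusted p = 5.43e-12) and Ir7g by 1.44 (SE 0.14, limma adjusted p = 6.07e-09). Ir7g was at 0.517 to 3.17 in D. sechellia adults and above 0 in 3 of 12 D. simulans adults, at 0.0952 at most. Or47a, an antennal and larval receptor for fruit esters, was at 0.304 to 3.07 in D. sechellia adults and above 0 in 2 of 12 D. simulans adults, and differed by 1.00 (SE 0.14, limma adjusted p = 2.09e-06). Altogether 8 of the 14 tested receptors had no overlap between the species, all higher in D. sechellia, as did 45.8% of all genes tested.

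The other 3 higher calls were less firm. Ir21a differed by 0.99 (SE 0.34, limma adjusted p = 0.0109), and all 12 D. sechellia values lay below the 3 D. simulans libraries at 3.55 to 4.29. Ir76b differed by 0.29 (SE 0.08, limma adjusted p = 0.00259), with 5 D. sechellia libraries above the highest D. simulans library. Ir47a, above 0 in 11 of 12 D. simulans and 6 of 12 D. sechellia adults, differed by 0.40 (limma adjusted p = 0.0405), and this call was lost in 16 of the 24 fits that left out 1 library (limma adjusted p of 0.05 to 0.0843) and with a pseudocount of 0.1 (limma adjusted p = 0.156). Gr63a was the only receptor called lower in D. sechellia, by -0.53 (SE 0.10, limma adjusted p = 8.78e-05), though the groups overlapped. Without SS replicate 1, OS replicate 1 or OS replicate 3 of D. simulans it no longer passed the filter, here and in the tests of stage. Ir7c (-0.35, SE 0.31, limma adjusted p = 0.308) and Ir76a (-0.27, SE 0.22, limma adjusted p = 0.27) were not called.

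**Figure D2:**
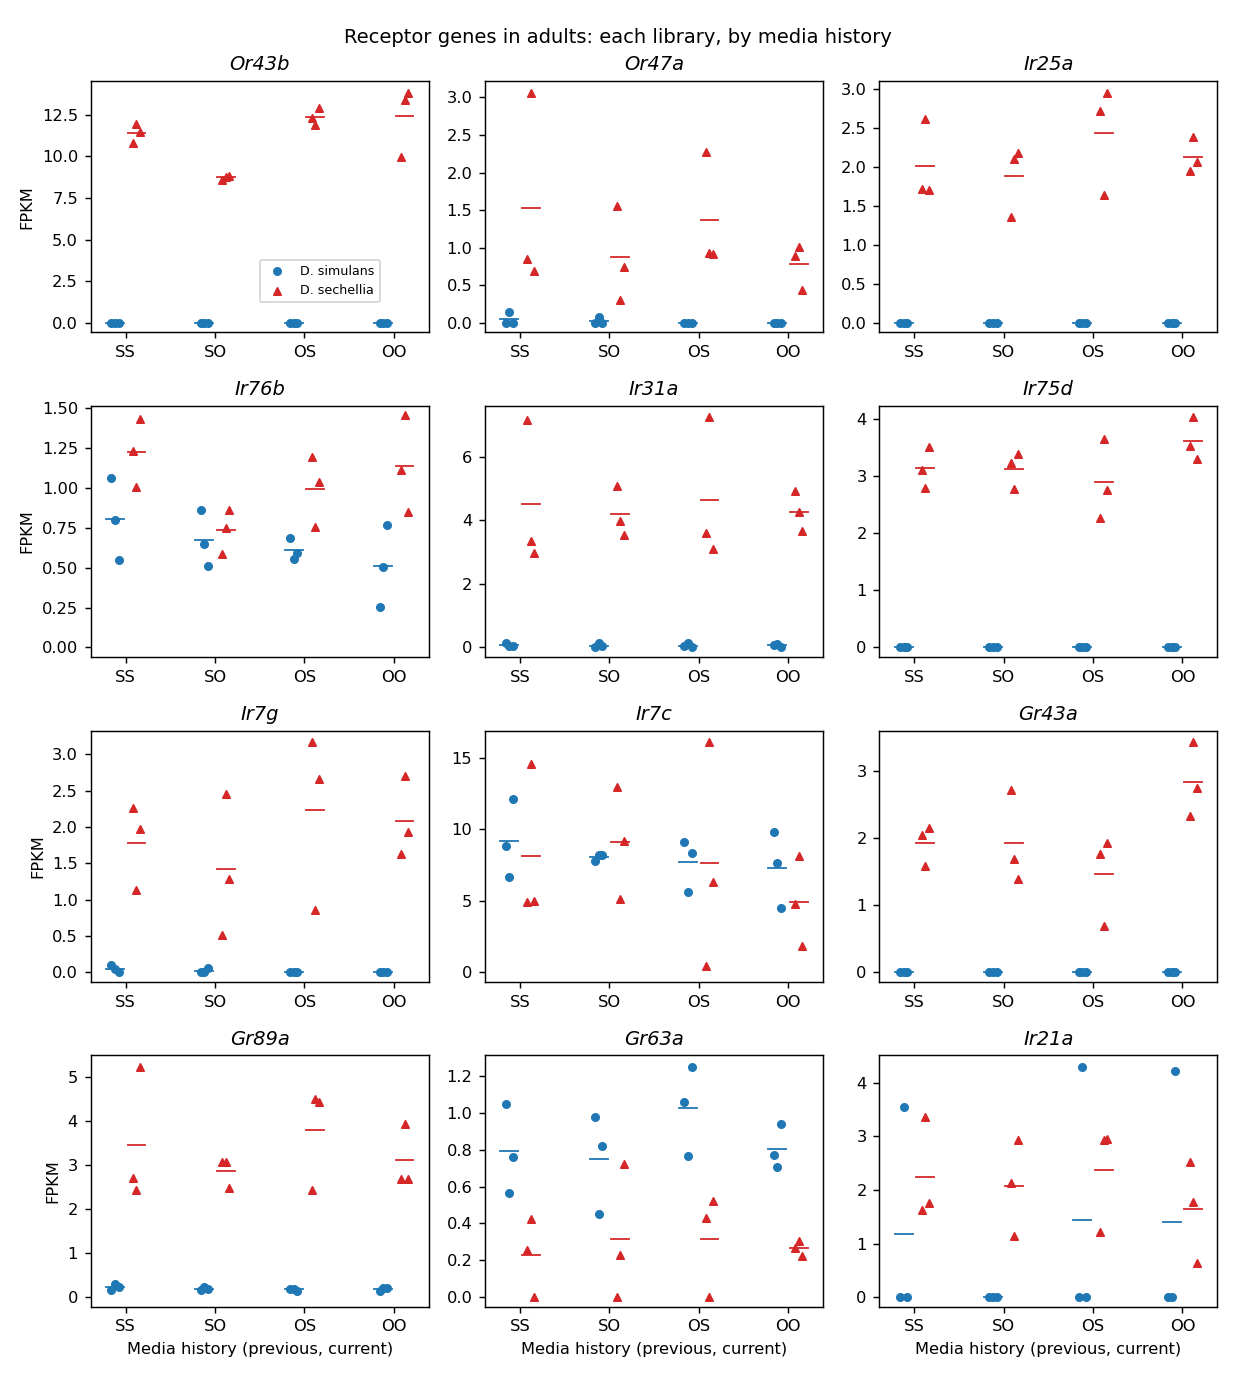
FPKM of 12 receptor genes in each adult library (points) with the mean of 3 libraries (lines), by species and media history. Or43b, Ir25a, Ir75d and Gr43a are at 0 in all D. simulans libraries, Ir21a is at 0 in 9 of them, and Ir7c and Ir76b overlap between the species.

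The scale of the values bears on the direction of these calls. When every library was rescaled by its median ratio, the median difference of all genes moved from 0.74 to 0.04, and the receptors called in adults were 8 higher and 3 lower, beside 2376 and 2174 of the 6211 genes tested. Ir76b then turned to -0.065 and Ir21a fell to 0.63 (limma adjusted p = 0.138), neither called, while Ir76a and Ir7c became calls. Or43b, Ir31a, Ir75d, Gr89a, Ir25a, Gr43a, Ir7g and Or47a remained higher and Gr63a remained lower. Markers of neurons moved in the same direction in adults: all 8 in the table were higher in D. sechellia, with a summed level of 89.4 to 269 FPKM against 57.2 to 89.9 in D. simulans and a median difference of 0.95. Without rescaling 77.0% of all genes were called higher as well, with the median of 0.74. Rescaled values of the markers are not given here. The part of the neuron markers in the receptor differences was not tested.

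In larvae 10 of the 100 receptors were tested, and 7 were higher and 1 lower in D. sechellia. Among all genes tested, 67.9% were called, 59.2% higher and 8.74% lower. Or43b again had the largest difference, 3.49 (SE 0.09, limma adjusted p = 4.06e-17), and Ir31a differed by 2.26 (SE 0.11, limma adjusted p = 4.23e-13). Ir7g was at 1.47 to 5.62 FPKM in D. sechellia larvae (median 2.84) and above 0 in 2 D. simulans larvae, and differed by 1.91 (SE 0.09, limma adjusted p = 6.66e-13). For these 3 the species did not overlap.

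Ir60b, a pharyngeal receptor that limits sugar intake, was at 0.925 to 5.40 in D. sechellia larvae (median 2.64) and above 0 in 3 of 12 D. simulans larvae, at 0.190 at most. It differed by 1.89 (SE 0.11, limma adjusted p = 1.03e-11). Gr98b, a receptor for the bitter plant compound canavanine, was at 0.622 to 2.61 in D. sechellia larvae (median 1.31) and above 0 in 4 D. simulans larvae, at 0.334 at most. It differed by 1.15 (SE 0.11, limma adjusted p = 2.57e-08). Ir54a was at 0.315 to 1.55 in D. sechellia larvae and at 0 in all D. simulans larvae, a difference of 0.87 (SE 0.10, limma adjusted p = 1.64e-07). In all, 6 of 10 tested receptors did not overlap, all higher in D. sechellia, against 29.9% of genes tested. These 6 passed the filter through D. sechellia alone, with D. simulans at 0.529 FPKM at most, so their count is a description only.

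Gr5a differed by 1.56 in larvae (SE 0.34, limma adjusted p = 0.000451), but only 4 D. sechellia libraries exceeded the highest D. simulans library, at 8.14 FPKM. Ir76a was lower by -0.26 (SE 0.11, limma adjusted p = 0.0412), with medians of 0.436 in D. sechellia and 0.789 in D. simulans. That call was lost in 16 of the 24 fits that left out 1 library (limma adjusted p of 0.0501 to 0.0792). Ir75d (0.55, SE 0.27, limma adjusted p = 0.0772) was not called with all libraries, and was called without OS replicate 2 or OO replicate 2 of D. simulans (limma adjusted p of 0.0273 and 0.0048). Gr77a differed by 0.03 (SE 0.15, limma adjusted p = 0.873). Of the 8 neuron markers, 2 were higher in D. sechellia larvae (ChAT and fne) and 1 lower (Syt1), with a median difference of 0.12. The mean of Syt1 was 78.6 FPKM in larvae of D. sechellia, below the 202 of D. simulans. Their part in the receptor differences was not tested.

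**Figure D3:**
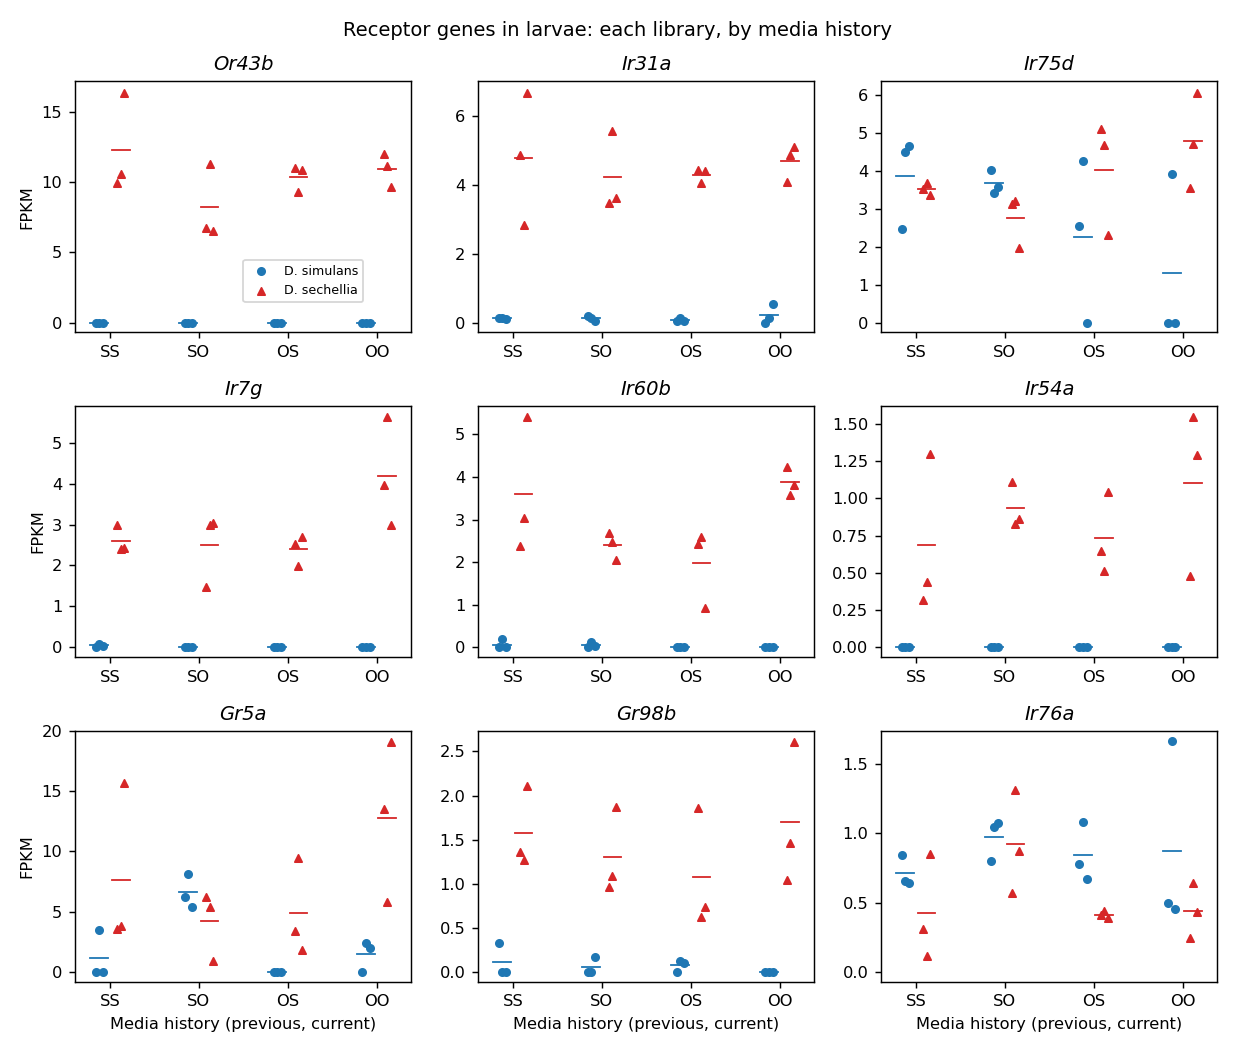
FPKM of 9 receptor genes in each larval library (points) with the mean of 3 libraries (lines), by species and media history. D. sechellia lies above D. simulans without overlap for Or43b, Ir31a, Ir7g, Ir60b, Ir54a and Gr98b, while Gr5a, Ir75d and Ir76a overlap, and Gr5a and Ir75d fall to 0 in part of the D. simulans libraries.

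With the filter on low values removed, 90 receptors could be tested in adults and 93 in larvae, and calls rose to 32 and 30, against 73.7% and 63.7% of all genes. In adults 28 were higher and 4 lower in D. sechellia, beside 67.9% and 5.75% of all genes. The lower ones were Gr59f, Gr63a, Or9a and Or59b. Or9a, an antennal receptor, was above 0 in 12 of 12 D. simulans adults at 0.118 to 0.873 and in 4 of 12 D. sechellia adults. Or59b, an antennal receptor for small esters, was at 0.171 to 0.818 in D. simulans adults (median 0.551) and above 0 in 8 D. sechellia adults, at 0.487 at most. In larvae 21 were higher and 9 lower, beside 55.0% and 8.72% of all genes, and Gr64f, Gr28b, Ir60a, Or45b and Or46a were among the lower ones. Neither Or9a nor Or59b reached 1 FPKM in any adult library of the parents.

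Genes that work beside the receptors were looked at for comparison. Of 36 listed accessory genes 10 are in the table. In adults 7 were tested and 6 were higher in D. sechellia (Orco, Os-C, a5, ppk23, ppk29 and to) and none lower, with Orco differing by 0.48 (limma). Of all genes tested 77.0% were higher and 5.96% lower. Or22a, a receptor known for its role in the attraction of D. sechellia to noni, was at 0.926 to 3.52 FPKM in D. sechellia adults and at 0.351 at most in D. simulans adults, above 0 in 8 of 12.

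Stage was tested within each species in 1 fit of the 48 parental libraries, in which 20 receptors were tested. D. simulans adults had higher values than larvae for 5 receptors and lower values for 3, against 38.5% and 39.5% of all genes and 78.1% called in all. Ir7c rose by 3.14 from larvae to adults (SE 0.23, limma adjusted p = 7.18e-15). Ir76b (0.58, SE 0.07, limma adjusted p = 6.05e-10), Gr63a (0.59, SE 0.09, limma adjusted p = 1.3e-07) and Ir76a (0.57, SE 0.18, limma adjusted p = 0.00453) were also higher in adults, Ir76a not with a pseudocount of 0.1 (limma adjusted p = 0.168). Ir21a was called higher (0.58, limma adjusted p = 0.0353) only through the 3 adult libraries above 0: without SS replicate 2, OS replicate 2 or OO replicate 3 its adjusted p was 0.114 to 0.118.

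Ir75d, Gr5a and Gr77a were called higher in larvae of D. simulans than in adults. Ir75d was above 0 in 9 of 12 larvae and no adult, a difference of -1.66 (SE 0.20, limma adjusted p = 1.78e-09), and Gr5a in 6 of 12 larvae and no adult, -1.19 (SE 0.26, limma adjusted p = 7.61e-05). Gr77a was lower in adults by -0.27 (limma adjusted p = 0.0473), a call lost in 23 of the 48 fits that left out 1 library. Ir7c and Gr89a were the 2 of 20 receptors whose adult and larval ranges did not overlap, both higher in adults, against 23.6% of genes. The difference of Gr89a was 0.24 and was not called (SE 0.12, limma adjusted p = 0.0638), but passed with a pseudocount of 0.1 (limma adjusted p = 3e-05), under median-ratio rescaling (limma adjusted p = 0.0211) and without any of 4 single libraries. Without the filter 20 receptors were called in D. simulans, 10 in each direction, against 74.8% of all genes (36.7% higher, 38.1% lower).

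In D. sechellia 10 receptors were higher and 5 lower in adults, against 44.2% and 36.6% of all genes and 80.9% called in all. Ir7c rose from larvae to adults by 2.78 (SE 0.23, limma adjusted p = 2.2e-13) and Gr89a by 1.44 (SE 0.12, limma adjusted p = 8.38e-14). Gr89a was at 2.43 to 5.24 FPKM in adults and at 1.56 at most in larvae. Both Ir co-receptors were higher in adults, Ir25a by 1.31 (SE 0.07, limma adjusted p = 2.73e-19) and Ir76b by 0.88 (SE 0.07, limma adjusted p = 1.03e-14), with no overlap between stages for either. Ir21a (1.13), Or47a (0.74), Gr43a (0.67), Ir76a (0.56), Ir47a (0.52) and Gr63a (0.24) completed the higher calls by limma.

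Larvae of D. sechellia had higher values of Gr5a, Ir60b, Gr98b, Ir7g and Ir54a. Gr5a differed by -2.41 (SE 0.26, limma adjusted p = 9.53e-11), Ir60b by -1.71 (SE 0.09, limma adjusted p = 6.61e-20) and Gr98b by -1.23 (SE 0.09, limma adjusted p = 1.42e-15). Gr98b was at 0 in all D. sechellia adults, and for these 3 genes the stages did not overlap. Ir7g (-0.46, limma adjusted p = 0.000511) and Ir54a (-0.34, limma adjusted p = 0.01) overlapped. Or43b, Ir31a and Or7a were not called in either species. In D. sechellia the medians of Or43b were 11.7 FPKM in adults and 10.7 in larvae, a difference of 0.11 (SE 0.08, limma adjusted p = 0.181) that was called without either of 2 single libraries (limma adjusted p of 0.0244 and 0.0363). Altogether 4 receptors were higher and 3 lower in adults without overlap, against 18.8% and 21.6% of genes. A receptor could pass the filter through the stage where it was higher, so these counts are descriptions only. Without the filter 39 were called, 29 higher and 10 lower in adults, against 42.7% and 35.4% of all genes.

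Rescaling by median ratios shifted the median stage difference of all genes from 0.13 to -0.16 in D. sechellia and from 0.00 to -0.16 in D. simulans. The D. sechellia calls were then 6 higher and 7 lower, beside 2528 and 3386 of 7330 genes. Gr63a and Ir76a were no longer called, Ir47a and Or47a no longer passed the filter, and Ir31a and Or43b became calls as lower in adults. Markers of testis also separated the stages: the 8 in the table had a summed level of 45.5 to 363 FPKM in D. simulans larvae and 84.5 to 241 in D. sechellia larvae, and of 0.251 and 0.690 at most in adults, so the larval libraries held these transcripts although labelled female. Their part in the receptor differences was not tested.

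The difference between the species changed with stage for 11 of the 20 tested receptors, 6 with a positive and 5 with a negative change from larvae to adults. These tests and those of species and stage share their libraries. A receptor could pass the filter through the group where it was higher, so these counts are descriptions only. Of all genes 52.7% were called, 31.0% and 21.7% in the 2 directions. The D. sechellia minus D. simulans difference was larger in adults than in larvae for Ir75d (1.51, SE 0.28, limma adjusted p = 3.12e-05), Ir25a (1.31, SE 0.10, limma adjusted p = 7.62e-14), Gr89a (1.20, SE 0.16, limma adjusted p = 1.66e-07), Or47a (0.79), Gr43a (0.67) and Ir76b (0.30). That difference was smaller in adults for Ir60b (-1.69, SE 0.12, limma adjusted p = 2.58e-14), Gr5a (-1.22, SE 0.36, limma adjusted p = 0.00492), Gr98b (-1.18, SE 0.12, limma adjusted p = 3.96e-10) and Ir7g (-0.47, SE 0.16, limma adjusted p = 0.0164). Gr98b was at 0 in all D. sechellia adults and above 0 in 1 of 12 D. simulans adults. Ir25a and Gr43a were at 0 in all D. simulans libraries, so their values repeat the D. sechellia stage differences of 1.31 and 0.67. For Gr63a the value was -0.35 (SE 0.12, limma adjusted p = 0.0172). Under median-ratio rescaling there were 11 calls, 4 higher and 7 lower, beside 2283 and 1892 of 7330 genes, and Ir76b was no longer called (0.04, limma adjusted p = 0.741). With a pseudocount of 0.1 Gr5a (limma adjusted p = 0.0896) and Gr63a (limma adjusted p = 0.245) lost their calls.

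**Figure D4:**
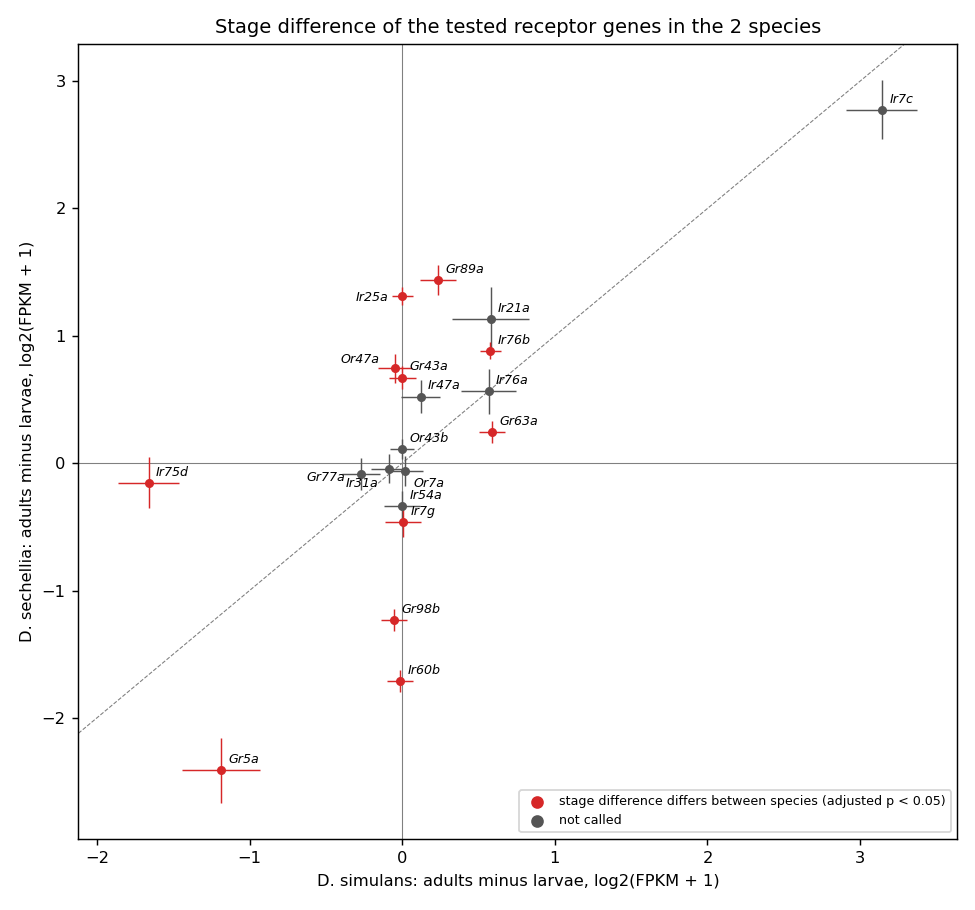
Difference between adults and larvae on the log2(FPKM + 1) scale in D. simulans (x axis) and D. sechellia (y axis) for the 20 tested receptors, with standard errors as bars and the line of equal difference dashed. Ir7c lies high in both species, Ir75d and Gr5a lie low in D. simulans, and the points in red are the 11 receptors whose stage difference differs between the species.

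No receptor was called for the current or the previous medium in any of the 12 comparisons, which were run within D. simulans, D. sechellia or hybrids at each stage. Each set octanoic acid against standard medium in 6 and 6 libraries of the same 12, so the comparisons for the current and previous medium share their libraries. Of all genes, limma called 0.0% in 7 comparisons, 0.0153% for either medium in D. simulans larvae, 0.0145% for the previous medium in D. sechellia larvae and 0.0445% for either medium in hybrid larvae, at most 3 genes. The number of receptors tested was 4 in D. simulans adults, 13 in D. sechellia adults, 15 in hybrid adults, 3 in D. simulans larvae, 9 in D. sechellia larvae and 20 in hybrid larvae. At an unadjusted p under 0.05 there were 1 each for the current and previous medium in hybrid adults, 1 and 2 in D. simulans larvae, 2 and 0 in hybrid larvae and 0 in the other 6 comparisons. Over all genes that threshold was met by 660 and 248 of 5915 in hybrid adults and 140 and 1727 of 6525 in D. simulans larvae. In hybrid larvae 298 and 203 of 6749 met it, and in the other 6 comparisons 57 to 159 genes. Without the filter on low values 53 to 83 receptors were tested per comparison, again with 0 called.

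Gr5a in D. simulans larvae came nearest to following the medium. Its 3 values were 0, 3.48 and 0 FPKM in SS, 6.26, 8.14 and 5.43 in SO, 0, 0 and 0 in OS and 0, 2.45 and 1.98 in OO. The SO larvae, whose parents had standard food and which fed on octanoic acid themselves, were the 3 highest of the 12. The difference for the current medium was 1.66 (SE 0.41), with an unadjusted p of 0.00222 and a limma adjusted p of 1.00. For the previous medium it was -1.26 (SE 0.41, limma adjusted p = 0.124).

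D. sechellia larvae showed no such order of Gr5a, at 3.59, 3.80 and 15.6 FPKM in SS, 6.26, 5.42 and 0.931 in SO, 3.42, 9.48 and 1.82 in OS and 13.5, 5.81 and 19.1 in OO. In hybrid larvae, as the sum of both alleles, Gr5a was at 8.53 to 29.5 on octanoic acid (median 16.6) and at 4.06 to 20.7 on standard medium (median 6.97), a difference of 1.01 (SE 0.46, limma adjusted p = 0.999). The groups overlapped in all 3 genotypes.

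Ir75d in D. simulans larvae was above 0 in 3 of 3 SS, 3 of 3 SO, 2 of 3 OS and 1 of 3 OO libraries. It was lower after octanoic acid in the previous generation by -1.15 (SE 0.48, limma adjusted p = 0.165). This comparison hung on 1 library: without OO replicate 2, Gr5a (-1.42, limma adjusted p = 0.049) and Ir75d (-1.53, limma adjusted p = 0.0289) were both called. How many of all genes were called in that fit is not given here. With all 12 libraries, 1727 of 6525 genes had an unadjusted limma p under 0.05 for the previous medium. The current medium differed by -0.33 for Ir75d (limma adjusted p = 1.00), and Ir76a moved by less than 0.1 for either medium.

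In D. simulans adults the 3 receptors of smallest p for the current medium were Gr63a (-0.10), Ir21a (-0.37) and Ir7c (-0.12), and for the previous medium Ir76a (0.56), Ir7c (-0.20) and Gr63a (0.12), with limma adjusted p from 0.987 to 1.00. Ir76a was at 1.89 to 2.60 FPKM after octanoic acid in the previous generation and at 0 to 2.91 after standard medium, where 2 of 6 libraries were at 0. Gr43a (0.33), Ir47a (0.51) and Or47a (-0.38) stood first among D. sechellia adults for the current medium, with a limma adjusted p of 0.999 for each. For the previous medium there Or43b stood first, at 9.98 to 13.8 after octanoic acid (median 12.6) and 8.60 to 11.9 after standard medium (median 9.82). It differed by 0.28 (SE 0.13, limma adjusted p = 0.998), ahead of Ir7c (-0.70) and Ir7g (0.29).

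D. sechellia larvae had Ir7g (0.26), Or43b (-0.24) and Ir54a (0.25) first for the current medium, and Ir75d (0.36), Ir7g (0.25) and Gr77a (-0.26) for the previous one, with limma adjusted p of 0.999 to 1.00. Hybrid adults had Ir76a at 0 to 7.75 FPKM on octanoic acid (median 0.368) and at 0.757 to 14.2 on standard medium (median 5.16), a difference of -1.47 (SE 0.63, limma adjusted p = 0.439). Or43b (-1.76) and Ir21a (0.90) followed. For the previous medium Ir76a differed by 1.47 (SE 0.63, limma adjusted p = 0.998), followed by Or43b (1.21) and Gr89a (0.90). In hybrid larvae Ir56a was at 0 to 2.12 on octanoic acid and at 0.800 to 7.22 on standard medium, a difference of -1.41 (SE 0.48, limma adjusted p = 0.999), followed by Gr5a and Gr28b (0.88). Or49b (-1.09), Ir31a (-1.29) and Or42a (0.90) were first for the previous medium there. In every one of these comparisons the groups overlapped.

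The number of receptors above 0 was also counted by history, with no test. D. simulans adults had a mean of 36.3 receptors above 0 in SS, 34.0 in SO, 37.0 in OS and 30.3 in OO libraries, and D. sechellia adults 41.0, 42.3, 40.7 and 44.3. Within D. simulans OO adults alone the 3 libraries had 34, 25 and 32. Among the hybrid columns, the D. sechellia allele in adults had a mean of 8.0 receptors above 0 in SS, 4.33 in SO, 8.33 in OS and 8.0 in OO. The 3 SO columns behind the 4.33 had 4, 3 and 6, and those of SS had 8, 9 and 7. In hybrid larvae the D. sechellia allele had 8, 15 and 13 receptors above 0 in SS, 7, 7 and 9 in OS and 9, 10 and 4 in OO. The D. simulans allele had 14, 10 and 9 in SS larvae and 2, 11 and 7 in SO larvae.

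Hybrids were compared with the mean of the parents, taking the sum of the 2 allele columns as the hybrid value. The allele columns were much emptier than the parental ones. Receptors detected in at least 6 of 12 columns numbered 5 for the D. simulans and 4 for the D. sechellia allele in adults and 5 and 7 in larvae, beside 69.6%, 63.7%, 78.1% and 66.2% of all genes. The lowest listed value was 0.0366 to 0.0803 FPKM for the D. simulans and 0.257 to 0.877 for the D. sechellia allele in adults, above that of the parents. In larvae it was 0.0602 to 0.119 and 0.0726 to 0.284.

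In hybrid adults 21 receptors were tested, 4 were higher and 2 lower than the parental mean, against 51.8% and 25.7% of all genes and 77.6% called. A receptor could pass the filter through the hybrids where it was higher, so these counts are descriptions only. Without the filter 4 were higher and 14 lower, beside 3304 and 1806 of 7527 genes. In adults the D. sechellia allele columns listed no value between 0 and 0.257 FPKM. What part this has in the lower calls was not tested. Ir7c was at 18.0 to 84.7 FPKM in hybrids (median 43.2), above every parental library, whose highest value was 16.1. It exceeded the parental mean by 2.42 (SE 0.27, limma adjusted p = 3.48e-09). Gr43a was above 0 in 11 of 12 hybrids with a median of 8.64, against 1.99 in D. sechellia, and exceeded the mean by 1.67 (SE 0.27, limma adjusted p = 2.14e-06). Ir21a (0.78, limma adjusted p = 0.0147) and Ir76b (0.41, limma adjusted p = 0.0357) were the others. Ir75d was above 0 in 2 hybrid adults and lower by -0.69 (SE 0.18, limma adjusted p = 0.000888), and Ir47a was at 0 in all (-0.32, limma adjusted p = 0.0334). With median-ratio rescaling the calls were 2 higher and 6 lower, beside 2088 and 2776 of 6396 genes, Ir21a (limma adjusted p = 0.245) and Ir76b (limma adjusted p = 0.794) losing theirs, and the median of all genes moved from 0.46 to -0.18. Ir76b was also lost in 6 fits that left out 1 hybrid library (SS replicate 3, SO replicates 1 and 3, OS replicates 1 and 2, OO replicate 1), and Ir47a without D. sechellia OO replicate 1.

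In hybrid larvae 25 receptors were tested, 8 were higher and 1 lower, against 29.0% and 38.2% of all genes and 67.2% called. A receptor could pass the filter through the hybrids where it was higher, so these counts are descriptions only. Without the filter 8 were higher and 6 lower, beside 2091 and 2840 of 7794 genes. The D. sechellia allele columns of larvae listed no value between 0 and 0.0726 FPKM, and the part of this in the lower calls was not tested. Gr5a was at 4.06 to 29.5 FPKM (median 12.1), above 0 in all 12, and exceeded the parental mean by 1.66 (SE 0.29, limma adjusted p = 1.15e-05). Gr43a was above 0 in 10 hybrid larvae with a median of 5.88 and exceeded it by 1.77 (SE 0.29, limma adjusted p = 3.88e-06). Or43b was at 2.55 to 18.4 in hybrids (median 6.37), between the parental levels in FPKM. It exceeded the mean of the parental log2 values by 1.22 (SE 0.17, limma adjusted p = 4.71e-07), a mean that lies far below the midpoint in FPKM when 1 parent is at 0.

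Gr98b (1.09), Ir56a (1.06), Ir60b (0.54), Ir60a (0.41) and Ir11a (0.35) were the other higher calls by limma in hybrid larvae. Ir60a and Ir11a were each above 0 in 4 of 12 hybrids and each lost its call, or its place in the test, without any of 4 hybrid libraries: SS replicate 1, SO replicate 2 and OO replicates 1 and 2 for Ir60a, and SO replicate 2, OS replicates 1 and 2 and OO replicate 1 for Ir11a. Ir75d was above 0 in 5 hybrid larvae, at 4.57 at most, and lower than the parental mean by -1.20 (SE 0.29, limma adjusted p = 0.000618). Both parents had larval medians near 3.5. The D. simulans allele of Ir75d was listed at 0 in all 12 hybrid larvae, while D. simulans larvae had it above 0 in 9 of 12. What part the split of reads has in the lower hybrid value was not tested. The same comparisons share the parental libraries with the tests of species.

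Within hybrids both alleles share the same cells. Each allele column was scaled to a total of 1000000 before the 2 were compared within libraries, since D. simulans columns summed to 122009 to 192420 FPKM and D. sechellia columns to 766311 to 1034080 in adults. In adults 21 receptors were tested and 3 called, 1 higher and 2 lower for the D. sechellia allele, against 50.4% of all genes, 21.9% higher and 28.5% lower. A receptor could pass the filter through the allele where it was higher, so these counts are descriptions only. Without scaling the median difference of all genes moved from -0.11 to 1.89, and 4 receptors were higher and 1 lower, beside 4241 and 438 of 5933 genes. The D. sechellia allele was higher for Ir31a, which was above 0 in 7 of 12 libraries against 0 of 12 for the D. simulans allele (1.69, SE 0.42, limma adjusted p = 0.00399), the same direction as between the parents. Ir31a passed both filters through D. sechellia alone, so the shared direction is a description only.

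Ir21a was listed the other way round from its parents. The D. simulans allele was above 0 in 10 of 12 hybrid adults, at 7.69 FPKM at most as deposited, and the D. sechellia allele in 0 of 12. In the parents it was above 0 in 3 D. simulans and 12 D. sechellia adults. The scaled difference was -3.83 (SE 0.51, limma adjusted p = 2e-05). The D. sechellia allele column also lists 0 for a gene that is abundant in the parent: Os-C, an antennal protein gene and no receptor, was at 0 in all 12 of these columns in adults, at 110 to 266 FPKM in D. sechellia adults, and above 0 in 11 of 12 for the D. simulans allele. How reads were given to the alleles is not stated in the sources used here, so the 0 of Ir21a there is given only as listed, and what part the split of reads has in the order was not tested.

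Ir76b was called lower for the D. sechellia allele (-1.22, SE 0.45, limma adjusted p = 0.0344), but turned to 0.13 without scaling and lost its call in 6 of 12 fits that left out 1 library (limma adjusted p of 0.0638 to 0.0737). Ir7c was above 0 in all 12 columns of both alleles, at 3.25 to 14.7 FPKM for D. simulans (median 8.20) and 4.26 to 70.0 for D. sechellia (median 34.4) as deposited. The scaled difference of -0.59 was not called (SE 0.32, limma adjusted p = 0.143). In the D. simulans parent the median of Ir7c was 8.22 and in the D. sechellia parent 5.75. Without scaling the allele difference of Ir7c was called in the other direction, with the D. sechellia allele higher (limma adjusted p = 0.000163).

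In hybrid larvae 29 receptors were tested and 10 called, 6 higher and 4 lower for the D. sechellia allele, against 50.9% of all genes, 12.9% higher and 38.0% lower. A receptor could pass the filter through the allele where it was higher, so these counts are descriptions only. Without scaling the median of all genes moved from -0.47 to 0.36, and 6 receptors were higher and 1 lower, beside 2529 and 1442 of 6754 genes. Or43b had the largest difference, 3.20 (SE 0.36, limma adjusted p = 2.53e-06), with the D. sechellia allele above 0 in 12 of 12 and the D. simulans allele in 1. Ir7g (1.85, SE 0.41, limma adjusted p = 0.0015), Gr98b (1.85, SE 0.46, limma adjusted p = 0.00362), Ir60b (1.84, SE 0.30, limma adjusted p = 9.36e-05) and Ir31a (1.78, SE 0.52, limma adjusted p = 0.00993) were higher for the D. sechellia allele as well. All 5 were higher in D. sechellia than in D. simulans larvae too. They passed both filters mainly through D. sechellia, so the shared direction is a description only. Ir75d (0.91, limma adjusted p = 0.0373) was above 0 in 5 and 0 columns and lost its call in 5 of 12 fits that left out 1 library.

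The D. simulans allele was higher for Gr5a, at 1.68 to 20.0 FPKM as deposited (median 6.98) and above 0 in all 12, against 0 to 13.6 for the D. sechellia allele (median 4.26), above 0 in 9. The scaled difference was -2.06 (SE 0.51, limma adjusted p = 0.00348), and without scaling -0.80, not called (limma adjusted p = 0.126). Between the parents the D. sechellia larvae had been higher. Gr61a (-0.93, limma adjusted p = 0.0167), Or46a (-1.13, limma adjusted p = 0.0254) and Or45b (-0.75, limma adjusted p = 0.0472) were the other 3, each with the D. sechellia allele at 0 in all 12. Without scaling Gr61a and Or45b no longer passed the filter, and Or46a and Or45b were each lost in 5 of 12 fits that left out 1 library.

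**Figure D5:**
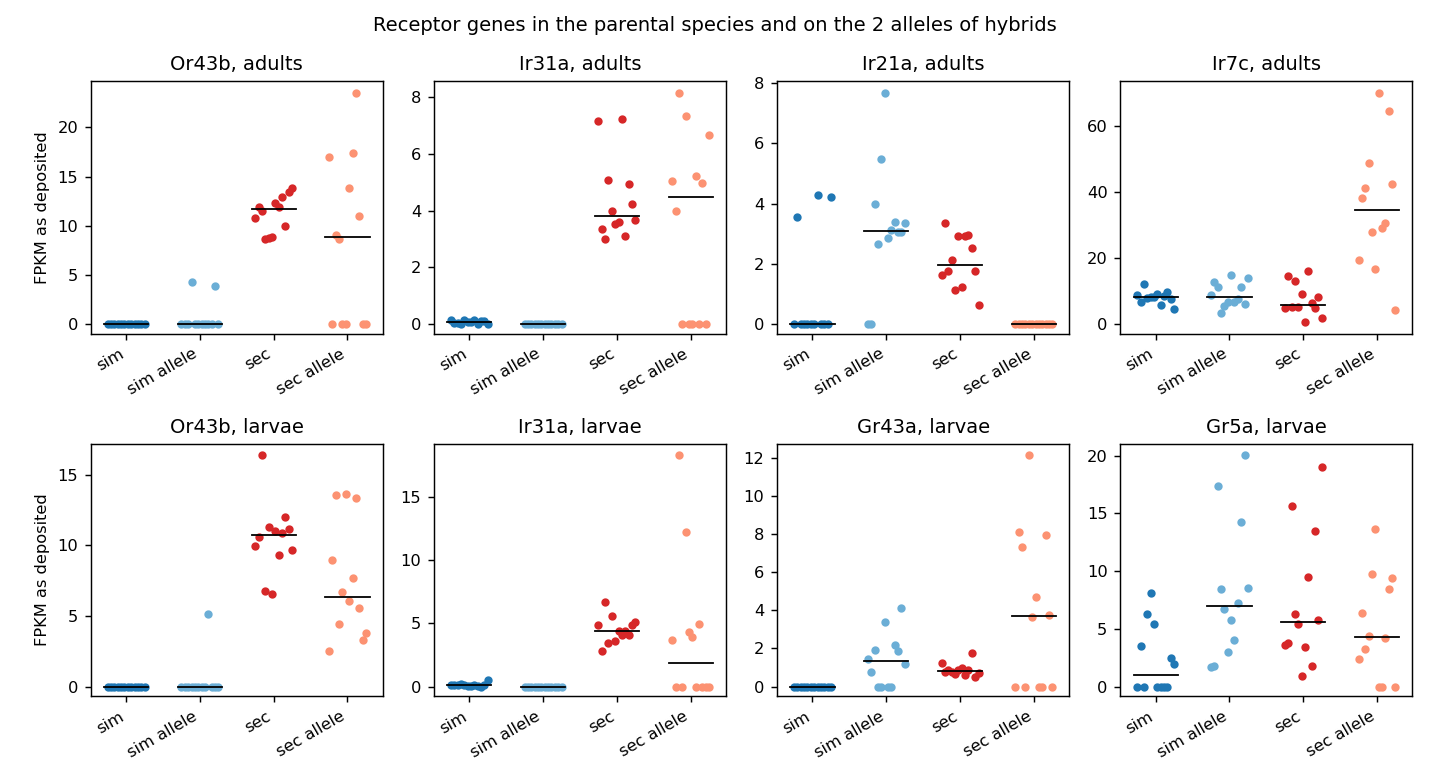
FPKM as deposited in the 12 libraries of D. simulans (sim), the 12 D. simulans allele columns of hybrids (sim allele), the 12 libraries of D. sechellia (sec) and the 12 D. sechellia allele columns (sec allele), with the median as a line, for 4 receptors in adults and 4 in larvae. Or43b and Ir31a keep the parental order on the alleles by their medians (the adult Or43b difference was not called, limma adjusted p = 0.125), Ir21a is at 0 on every D. sechellia allele column, and the Gr43a D. simulans allele is above 0 in 8 of 12 hybrid larvae while D. simulans is at 0 throughout.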

How the data were processed

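The authors deposited 1 table of FPKM with 7836 genes and 96 columns, of which 48 come from parental libraries and 48 give the 2 alleles in 24 hybrid libraries. The tools listed, per the submitters' processing notes, are FastQC, Bowtie2 and Cufflinks. Their versions, the genome builds and how reads were split between alleles were not given in the sources used here. Read depth is unknown, and no interval from counts is given.

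Receptors were taken by symbol, and none of the 100 matched the reference gene table by symbol. A gene entered a fit if 3 or more of its libraries reached 1 FPKM. Values were taken as log2(FPKM + 1), and limma 3.58.1 (R 4.3.3) was run with a mean-variance trend and 1 mean for each group of stage, genotype and history, and p-values were adjusted by Benjamini-Hochberg over all genes of a comparison. All adjusted p come from limma. Species were compared in 24 libraries, stages in 48, media in 12, hybrids in 36 and alleles with the library as a block. The scripts were tested on simulated data. The replicates are labelled as biological, and no other statement says that they came from separate cultures.

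Alternatives were no filter, a pseudocount of 0.1, no trend, median-ratio rescaling, unscaled allele columns, all libraries of a stage, a block of replicate numbers and each library left out. Receptors named per comparison were those called with a group mean of at least 1 FPKM, up to 12 in each direction, or the 3 of smallest p, and for levels those of 5 role lists and the 10 highest per stage. Ir47a, Ir54a, Gr77a, Gr61a, Ir11a, Ir60a, Or45b, Or46a, Or9a, Or59b, Gr59f, Or7a and others of low level were named after their values were seen. The genes and lists were chosen with earlier results of these data known. Figures came from matplotlib 3.10.9 under Python 3.11.15, with numpy 2.4.6 and pandas 2.3.3.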

Additional observations from a re-analysis of the deposited data

Results flagged for a closer look

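The difference between the species differed between adults and larvae for 11 receptors by the interaction of species and stage (limma, 20 receptors tested; 52.7% of all genes were called). As the D. sechellia minus D. simulans difference in adults less the same in larvae, on log2(FPKM + 1), the values were 1.51 for Ir75d, 1.31 for Ir25a, 1.20 for Gr89a, 0.79 for Or47a, 0.67 for Gr43a and 0.30 for Ir76b. They were -1.69 for Ir60b, -1.22 for Gr5a, -1.18 for Gr98b, -0.47 for Ir7g and -0.35 for Gr63a. Ir75d was at 0 in all D. simulans adults and above 0 in 9 of 12 D. simulans larvae, while D. sechellia had it in all 24 libraries. Ir25a and Gr43a were at 0 in all D. simulans libraries, so their values repeat the D. sechellia stage differences. Testis markers were present in the larval libraries, and their part in these values was not tested.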

How the results depend on the processing

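Without the filter on low values the calls numbered 32 and 30 for species in adults and larvae, 20 and 39 for stage in D. simulans and D. sechellia, 23 for their interaction (3963 of 7820 genes called in all), and 18 and 14 for hybrids in adults and larvae (5110 of 7527 and 4931 of 7794). With all 36 libraries of a stage in 1 fit, the current medium gave 3 calls in hybrid adults (Gr77a, Ir76a and Ir76b) and 1 in hybrid larvae (Ir56a), beside 432 of 6420 and 68 of 7167 genes called. Unscaled allele columns gave 5 calls in adults, beside 4679 of 5933 genes. Detection at 0.1 FPKM left 20 receptors in D. simulans adults. At 1 FPKM it left 2 and 11 in D. simulans and D. sechellia adults, 2 and 7 in larvae, and 2 for the D. simulans allele at either stage.

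Leaving out 1 library at a time gave 10 to 12 and 7 to 8 calls for species in adults and larvae, 6 to 9 and 14 to 16 for stage in D. simulans and D. sechellia, 10 to 12 for the interaction, 5 to 9 and 8 to 13 for hybrids, 2 to 3 and 7 to 10 for alleles, and 0 to 2 for the previous medium in D. simulans larvae. The other 11 media comparisons stayed at 0. How many of all genes were called in these fits is not given here, so the ranges are descriptions only. Signs turned for Ir76b between species in adults (-0.065) and Ir76a for the previous medium in D. simulans larvae (0.078) under median-ratio rescaling, and for Ir76b between alleles in adults without scaling (0.13). The allele difference of Ir7c in adults, not called with scaling, also turned without it. Leaving out single libraries, signs turned for Ir7c and the current medium in D. simulans adults (-0.22 to 0.021), and in D. simulans larvae for Ir76a and the current (-0.057 to 0.16) and previous medium (-0.16 to 0.062). The cause was not tested. Leaving out single libraries also added calls of hybrids against the parental mean, among them Or43b, Gr63a and Or46a in adults and Or42a, Ir7g and Gr64a in larvae.

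Replicate numbers were taken to pair libraries only where the deviations of every same-numbered pair correlated over 0.1, which no set met. D. simulans larvae came nearest, with 14 of 18 pairs over 0.1, a lowest value of -0.07 and a median of 0.37, against -0.15 for pairs of other numbers. The other sets had 0 to 9 of 18, the lowest at -0.73 in D. sechellia. With the replicate block the calls were 12 and 8 for species, 8 and 15 for stage, 12 for the interaction, 6 and 10 for hybrids, 4 and 10 for alleles, and 0 for media. Of all genes, those called were 5209 of 6292 and 4782 of 7006 for species, and 5747 and 5936 of 7361 for stage. They were 3879 of 7361 for the interaction, 4973 of 6420 and 4905 of 7167 for hybrids, and 2938 of 6183 and 3331 of 6994 for alleles. In D. simulans larvae the block moved the genes of unadjusted p under 0.05 from 1727 to 2488 for the previous medium and from 140 to 319 for the current one, with no receptor called. The values cannot separate a receptor that is not expressed from one below the lowest value a library lists.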
